A study of Homo sapiens with 12 samples.

Results

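The nuclear-encoded subunits of the mitochondrial respiratory chain were followed through 94 genes, out of 20040 genes that had an array probe with 1 gene symbol. Members were taken by symbol: all genes whose name begins with NDUFA, NDUFB, NDUFC, NDUFS, NDUFV, UQCR, COX4, COX5, COX6, COX7, COX8 or ATP5, together with SDHA, SDHB, SDHC, SDHD and CYC1. By complex these were 36 subunits of complex I, 3 of complex II, 8 of complex III, 16 of complex IV (6 of them tissue-restricted isoforms) and 17 of complex V. The name prefixes also took in 8 complex I assembly factors (NDUFAF1 to NDUFAF8), which are not part of the finished enzyme, and 6 other genes. The 6 were the supercomplex factor COX7A2L, the ATP synthase inhibitor ATP5IF1, the intronless copy UQCRHL, the pseudogenes UQCRBP1 and ATP5F1EP2, and the antisense transcript NDUFB2-AS1. NDUFA4, NDUFA4L2, SDHB and UQCRFS1 were not analysed here, nor were 13 subunits encoded in the mitochondrial genome.

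The cells were LM, a subline of the triple-negative human breast cancer line MDA-MB-231 enriched for lung metastasis. LM-EV carried the control vector and was a pool of drug-resistant colonies, and BHLHE40-KD was 1 stable line with a lentiviral shRNA against BHLHE40, a hypoxia-induced transcription factor of the basic helix-loop-helix family. Both lines grew with puromycin. Each was left untreated (0 h) or kept at 1% O2 for 6 h or 48 h, which the labels give as hypoxia with low glucose. The study's methods give low glucose as 1 mg/ml for cell culture and as 1 mM for another set of arrays. The study's methods for these arrays name the low oxygen alone, so whether glucose was lowered is uncertain. This gave 6 groups of 2 Illumina HT-12 BeadChip arrays, and each of the 2 slides carried every group once. The methods name 2 independent experiments, but the labels do not say that the arrays of a group are separate cultures, so the p-values reflect array-to-array spread, which may be technical. With 1 knockdown line and 1 shRNA, an effect of lowered BHLHE40 and any other difference between the 2 lines cannot be told apart.

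Complexes I and II pass electrons from NADH and succinate to coenzyme Q, complex III hands them to cytochrome c, and complex IV gives them to oxygen. Complexes I, III and IV pump protons across the inner membrane, and complex V, the ATP synthase, lets them return while making ATP. In hypoxia, HIF1A is known to lower flux into the chain by inducing pyruvate dehydrogenase kinases and to exchange single subunits, such as COX4I1 for COX4I2. The question put to these arrays was whether the transcripts of the complexes moved with hypoxia and low glucose, and whether they differed between the 2 lines.

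Each array detected 20298 to 21830 of 47302 probes, with detected signals starting at 42.2 to 51.8, depending on the array. BHLHE40 itself gave 2992 and 2716 (slide 1, slide 2) in untreated LM-EV and 1771 and 1444 in untreated BHLHE40-KD. At 6 h it gave 4283 and 6795 against 3410 and 4324, and at 48 h 3365 and 6482 against 3199 and 3585. The knockdown arrays were below the LM-EV array of the same slide at all 3 times, but the log2 differences of -0.83, -0.49 and -0.46 had limma adjusted p-values of 0.0894, 0.286 and 0.322 and did not pass. Of the markers of MDA-MB-231, VIM, CD44, EGFR, KRT18, AXL and CAV1 were detected on all 12 arrays and SPARC on 6. The luminal markers ESR1, PGR and CDH1 were detected on 1, 0 and 2 arrays, while ERBB2 and EPCAM were detected on 12, GATA3 on 11 and TFF1 on 4. Among genes of other cell types, PTPRC, CD3E and CDH5 were detected on 1, 0 and 0 arrays, CD14, PECAM1 and ACTA2 on 12 (76.4 to 885), COL1A1 on 6 and PDGFRB on 5.

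The 300 bases around the transcription start (250 before, 50 after) are shown for COX5A and UQCRC1, the members that differed between the lines at all 3 times, in opposite directions. The sequences are RefSeq's, 5′ to 3′ along the gene, on the minus strand of GRCh38.p14, at chr15:74938024-74938323 for COX5A and chr3:48609597-48609896 for UQCRC1. Capitals mark every match, on either strand, to CACGTG (the E-box that BHLHE40 is known to bind), ACGTG (the core of the hypoxia response element), GCGCA, 1 base of any kind and GCGC in a row (NRF1) and CCGGAAG (ETS factors such as GABPA).
COX5A: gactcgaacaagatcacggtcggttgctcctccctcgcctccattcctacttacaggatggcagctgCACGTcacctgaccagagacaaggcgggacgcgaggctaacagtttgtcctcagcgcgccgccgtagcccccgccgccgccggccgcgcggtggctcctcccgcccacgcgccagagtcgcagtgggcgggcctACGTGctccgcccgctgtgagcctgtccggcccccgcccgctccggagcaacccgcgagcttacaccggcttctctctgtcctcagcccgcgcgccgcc
UQCRC1: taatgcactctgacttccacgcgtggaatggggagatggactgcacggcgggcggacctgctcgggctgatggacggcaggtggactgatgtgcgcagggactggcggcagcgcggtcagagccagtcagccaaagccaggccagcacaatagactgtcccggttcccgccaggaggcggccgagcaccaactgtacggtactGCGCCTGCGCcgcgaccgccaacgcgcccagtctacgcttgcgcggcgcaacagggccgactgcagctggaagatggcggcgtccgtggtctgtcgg

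The COX5A window held the hypoxia core on each strand, with first bases at -183 and -49 from the start, and the UQCRC1 window held 1 NRF1 match at -47. Neither window held CACGTG, every match of which also contains ACGTG. Windows were given for 76 members, 94 windows in all because some genes have several starts. CACGTG occurred in 9.57% of these windows against 7.26% of all 35116 promoter windows of the same length, and ACGTG in 22.3% against 21.4%. The motifs of the known respiratory regulators were more frequent among the members: NRF1 was found in 18.1% of their windows against 5.78%, and the ETS motif in 25.5% against 10.3%. Among the other members that passed between the lines, ATP5ME and NDUFA7 held CACGTG, NDUFA12 the hypoxia core at -98, and NDUFAF8 an ETS match in some of its windows. An NRF1 match was found for ATP5F1C, ATP5ME, NDUFA3, NDUFA12 and SDHA, and an ETS match also for ATP5ME. The comparison with all promoter windows was not limited to expressed genes or matched for base content, and windows of the same gene can overlap. A match is a run of letters and was not tested as a binding site.

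Of the 94 members, 86 had a probe detected in each array of some group and entered the tests, and 83 of these were detected on all 12 arrays. NDUFA5, NDUFB4 and NDUFC2 lay near the background. Signals were high: 76 members had a mean over 1000 and 18 a mean over 30000. The 8 members that were not tested included the tissue isoforms COX4I2, COX6A2, COX6B2, COX7A1, COX7B2 and COX8C, and also NDUFS6 and NDUFB2-AS1. COX4I2, the isoform known to be induced by HIF1A, was detected on 0 of 12 arrays at any time (signals from -44.9 to 3.89), whereas COX4I1 gave 41042 to 49065. The muscle isoforms COX7A1 and COX6A2 were likewise detected on 0 arrays, and their ubiquitous partners COX7A2 and COX6A1 gave 46860 to 64073 and 20128 to 30566. Probes for UQCRH and UQCRHL, ATP5F1E and ATP5F1EP2, and UQCRB and UQCRBP1 belong to near-identical transcripts, and the members of each pair are uncertain.

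**Figure D1:**
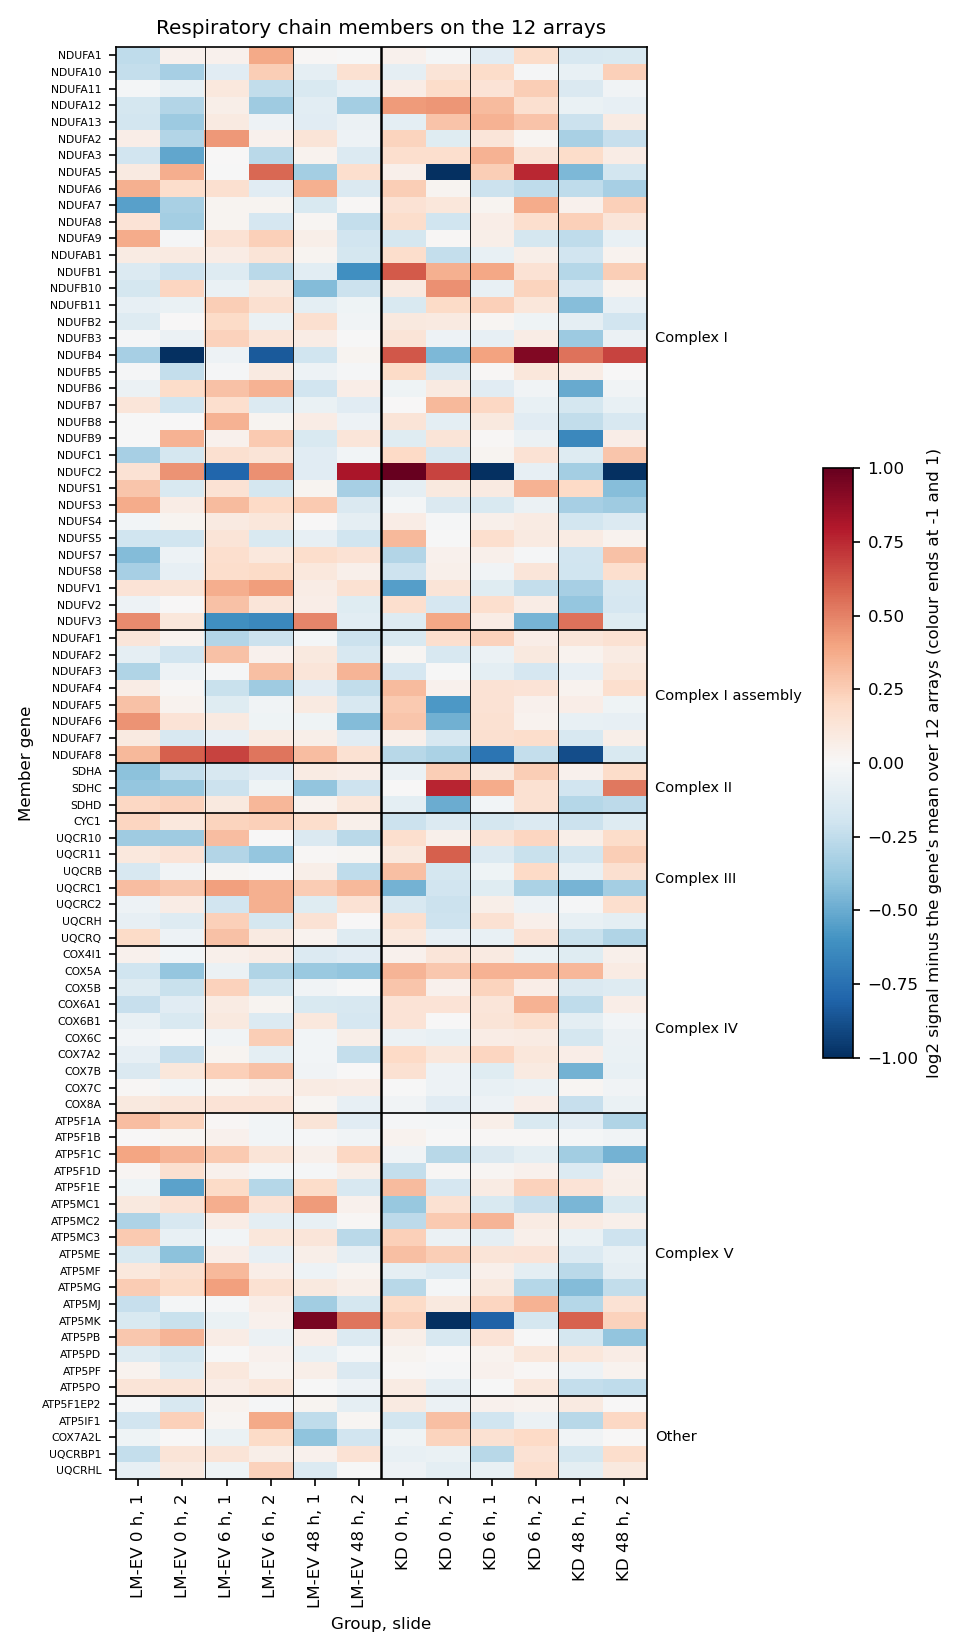
Each row is 1 of the 86 tested members, grouped by complex, and each column is 1 array (group, then slide 1 or 2). Colour is the log2 signal minus the mean of that gene over the 12 arrays, with the colour scale ending at -1 and 1. Most rows are pale, rows such as COX5A and UQCRC1 change colour at the line between LM-EV and BHLHE40-KD (KD), and the darkest rows are the near-background genes NDUFA5, NDUFB4, NDUFC2 and the dim ATP5MK and NDUFAF8.

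After 6 h of hypoxia and low glucose, LM-EV cells showed 0 of 86 members past the threshold (limma, adjusted p under 0.05), where 0.559% of all 12336 genes passed. At an unadjusted p under 0.05, 5 members were higher (5.81%, against 8.16% of all genes) and 5 lower (5.81% against 9.41%). The fitted changes leaned upward: 65 members were above 0 and 21 below, with a median log2 change of 0.11 against -0.00 over all genes. Higher on both slides were 48 members (55.8%, against 33.4% of all genes), and 12 were lower on both (14% against 33.7%). The lean was found in complex I (27 of 35 above 0, median 0.16), complex III (7 of 8, 0.10) and complex IV (10 of 10, 0.12), and was smaller in complex V (10 of 17, 0.06). The complex I assembly factors did not share it (4 of 8, median -0.10).

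Among members detected on all 12 arrays, the largest values in LM-EV at 6 h were those of UQCR10, a small subunit of complex III (0.52 ± 0.13, SE), NDUFA7, an accessory subunit of complex I (0.46 ± 0.13), and NDUFC1, another one (0.40 ± 0.18), with adjusted p-values of 0.118, 0.135 and 0.303. UQCR10 gave 1915 and 1911 untreated and 3040 and 2463 at 6 h. Its 2 dimmer probes went the other way (-0.27 and -0.32), so the direction depends on the probe. The lowest values on all 12 arrays were those of NDUFV3 (-0.92 ± 0.28, adjusted p = 0.159), an accessory subunit of the NADH-binding arm, UQCR11 (-0.46 ± 0.18, 0.256) and the assembly factor NDUFAF1 (-0.33 ± 0.15, 0.306). NDUFV3 went from 382 and 297 to 180 and 176. It was lower by 1.5-fold or more on both slides.

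At 48 h in LM-EV, 0 of 86 members passed (limma; 1.88% of all genes did). At an unadjusted p under 0.05, 4 were higher (10.5% of all genes were) and 4 lower (10.3%). The upward lean of 6 h was not present: 41 members were above 0 and 45 below, and the median was -0.00. ATP5MK, a small membrane subunit of ATP synthase, had the largest fitted change (0.93 ± 0.40, adjusted p = 0.245). It was dim, at 150 and 142 untreated and 322 and 241 at 48 h. NDUFAF3, an assembly factor of complex I, had 0.41 ± 0.13 and NDUFS7, a core subunit that carries an iron-sulphur cluster, 0.40 ± 0.18. SDHA, the flavoprotein of succinate dehydrogenase, had 0.40 ± 0.12 (adjusted p = 0.12) and gave 4332 and 4879 untreated against 6069 and 6029 at 48 h. The lowest values on all 12 arrays were those of NDUFAF6 (-0.53 ± 0.19), NDUFB10 (-0.34 ± 0.11) and ATP5PB (-0.34 ± 0.12), with adjusted p-values from 0.144 to 0.166.

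In BHLHE40-KD at 6 h, 0 of 86 members passed (limma; background 5.16%). At an unadjusted p under 0.05, 1 was higher (8.44% of all genes were) and 3 lower (12.8%). Fitted values were small: among the 76 with a mean signal over 1000 the median size of the log2 change was 0.08, against 0.16 for all 5518 genes over that signal, and 97.4% of them stayed within 1.2-fold against 69.7%. These values average 2 slides that often differed in sign. Higher on both slides were 17 members (19.8%, against 27.1% of all genes), and 12 were lower on both (14% against 32.4%). Among members detected on all 12 arrays, the extremes were SDHD (0.35 ± 0.16), NDUFAF5 (0.25 ± 0.21) and NDUFAF7 (0.22 ± 0.15) above 0, and UQCR11 (-0.53 ± 0.18), NDUFA6 (-0.37 ± 0.14) and NDUFV3 (-0.32 ± 0.28) below it. NDUFV3 differed in sign between slides (0.20 on slide 1, -0.85 on slide 2), and so did NDUFAF5 (-0.11 and 0.62). SDHD had 0.07 on slide 1 and 0.64 on slide 2. Near background, NDUFA5 had 1.11 ± 0.43 and NDUFC2 -1.44 ± 0.47, and neither passed.

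At 48 h in BHLHE40-KD, 0 of 86 members passed (limma; background 5.18%). At an unadjusted p under 0.05, 0 were higher (10.5% of all genes were) and 5 lower (12.7%). The fitted changes leaned downward, with 30 above 0 and 56 below and a median of -0.09, against -0.03 over all genes. Lower on both slides were 40 members (46.5%, against 35.9% of all genes). The downward lean was found in complex I (25 of 35 below 0, median -0.16), complex IV (9 of 10, -0.13) and complex V (12 of 17, -0.19). These counts also use values averaged over the 2 slides. In complex IV, for example, COX6C and COX8A were lower on slide 1 but higher on slide 2. Of the complex I assembly factors, 6 of 8 were above 0, but only NDUFAF2 and NDUFAF3 were higher on both slides. Among members detected on all arrays, NDUFA12, an accessory subunit of complex I, had the lowest value (-0.51 ± 0.13, adjusted p = 0.0742), going from 24331 and 24572 to 17300 and 17066. It passed, as the only member, when values under 64 were set to 64 (adjusted p = 0.0437) and when only genes with a detection p under 0.01 on all 12 arrays were tested (0.0372). NDUFB1 (-0.50 ± 0.23) and NDUFA6 (-0.43 ± 0.14) followed, and ATP5MK (0.87 ± 0.40), UQCRC2 (0.27 ± 0.17) and NDUFA8 (0.19 ± 0.15) were the highest on all 12 arrays. Near background, NDUFC2 had -1.54 ± 0.48 and did not pass.

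**Figure D2:**
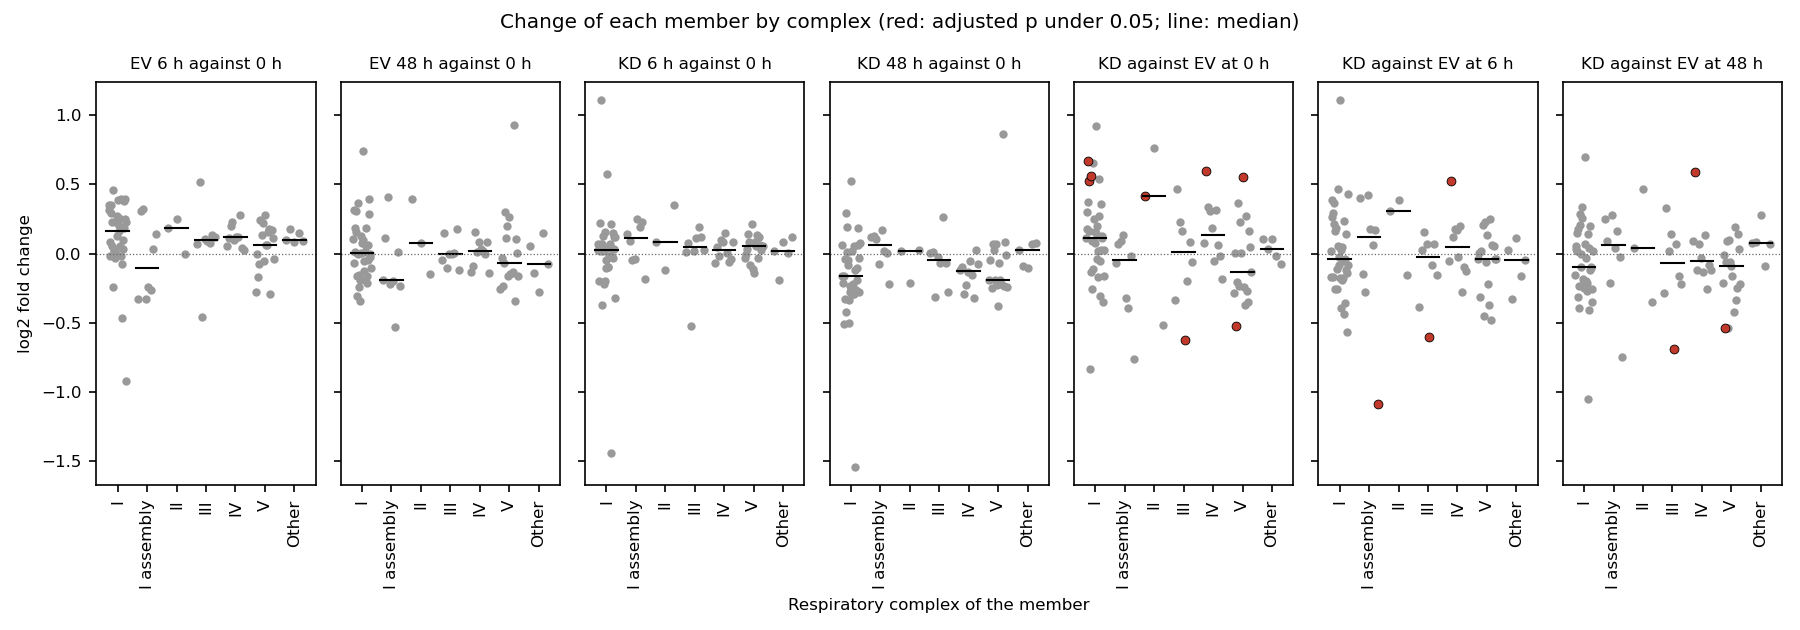
Each point is the fitted log2 fold change of 1 tested member (vertical axis) in 1 of 7 comparisons (panels), placed by complex (horizontal axis), with a black line at the median of each complex. Red points passed an adjusted p of 0.05: 0 in the 4 comparisons with untreated cells, then 8, 3 and 3 between BHLHE40-KD (KD) and LM-EV (EV) at 0 h, 6 h and 48 h.

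The response to hypoxia and low glucose did not differ detectably between the lines for any member. The limma interaction called 0 of 86 at 6 h (0.0243% of all genes) and 0 at 48 h (0%). At an unadjusted p under 0.05, 1 member was higher (2.29% of all genes were) and 1 lower (3.83%) at 6 h, and 0 higher (2.8%) and 3 lower (3.96%) at 48 h. The fitted interactions leaned downward, with medians of -0.09 at 6 h and -0.08 at 48 h. Lower on both slides at 6 h were 31 members (36%, against 29.6% of all genes), and 12 were higher (14% against 23.5%). The counts at 48 h were 36 lower (41.9% against 29.1%) and 12 higher (14% against 24.6%). Both interactions use the same untreated arrays. Among members detected on all 12 arrays, the largest interaction in size was that of ATP5ME, subunit e of ATP synthase, at 48 h (-0.64 ± 0.17, 95% interval -1.04 to -0.25, adjusted p = 0.62). ATP5ME went from 29911 and 25089 to 34713 and 31275 in LM-EV, and from 41042 and 39471 to 30354 and 31600 in BHLHE40-KD, so the lines were apart untreated and overlapped in part at 48 h. The interaction at 48 h was -0.52 ± 0.19 for NDUFA12 (adjusted p = 0.707) and 0.55 ± 0.26 for NDUFAF6 (0.766). At 6 h the extremes were NDUFV3 (0.59 ± 0.40) and UQCR10 (-0.44 ± 0.19). The median SE of a member's interaction was 0.2, which limits what these comparisons could show.

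Between the lines, more genes differed. In untreated cells 8 of 86 members passed (9.3%), 6 higher and 2 lower in BHLHE40-KD. Of all genes 18.2% passed (9.5% higher, 8.71% lower), and of genes with a mean signal over 1000, 19%. The members' share was below this background. The median log2 difference was 0.07 (0.02 over all genes), with 52 members above 0. In complex I, 3 accessory subunits were higher: NDUFA12 (0.67 ± 0.13, adjusted p = 0.0158), NDUFA7 (0.56 ± 0.13, 0.0245) and NDUFA3 (0.52 ± 0.12, 0.0245). NDUFA12 gave 16033 and 14796 in LM-EV and 24331 and 24572 in BHLHE40-KD, and NDUFA7 gave 1644 and 1912 against 2647 and 2582. In complex IV, COX5A, a nuclear-encoded subunit of the cytochrome c oxidase, was higher (0.60 ± 0.12, 0.0152), and in complex V the membrane subunit ATP5ME (0.56 ± 0.12, 0.0198).

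The members that were lower in untreated BHLHE40-KD were UQCRC1, a core protein of complex III (-0.62 ± 0.14, adjusted p = 0.0214), and ATP5F1C, the gamma subunit that forms the rotating stalk of ATP synthase (-0.52 ± 0.13, 0.0307). Within complex II the 3 measured subunits did not go the same way. SDHA was higher (0.42 ± 0.12, 0.0494), and of the 2 membrane anchors SDHC had 0.76 ± 0.25 (0.0728) and SDHD -0.52 ± 0.16 (0.0676). SDHC gave 2260 and 2279 in LM-EV and 2955 and 5004 in BHLHE40-KD, and its second probe passed when each probe was tested on its own (0.81, adjusted p = 0.0234). SDHA did not pass in that setting with either probe (0.42 and 0.52, adjusted p = 0.061 and 0.0844). For ATP5ME the brightest probe passed, and the next one gave 0.19 ± 0.20. Without 1 array of the compared groups the count of members fell from 8 to 0 (either LM-EV array), 7 (BHLHE40-KD on slide 1) or 2 (BHLHE40-KD on slide 2). Of these 7 and 2 members, 4 and 1 were among the original 8.

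At 6 h, 3 of 86 members passed (3.49%, against 18.4% of all genes, 8.63% higher and 9.78% lower). COX5A was higher in BHLHE40-KD (0.53 ± 0.12, limma adjusted p = 0.0239), and UQCRC1 (-0.60 ± 0.14, 0.0248) and NDUFAF8 (-1.09 ± 0.24, 0.0205) were lower. NDUFAF8 is an assembly factor that acts with NDUFAF5 on complex I. It was dim, giving 422 and 384 in LM-EV and 160 and 225 in BHLHE40-KD. The median over the members was -0.02, with 42 above 0 and 44 below. CYC1, the haem-bearing cytochrome c1 of complex III, was close to the threshold (-0.39 ± 0.11, adjusted p = 0.0523). Without either LM-EV array of 6 h the count was 0, and without either BHLHE40-KD array it was 1.

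At 48 h, 3 of 86 members passed (3.49%, against 16.5% of all genes, 7.89% higher and 8.6% lower). COX5A was higher (0.59 ± 0.12, limma adjusted p = 0.0174), and UQCRC1 (-0.69 ± 0.14, 0.0164) and ATP5F1C (-0.54 ± 0.13, 0.0299) were lower in BHLHE40-KD. The median was -0.03, with 39 above 0 and 47 below. SDHA, higher in untreated knockdown cells, had 0.04 ± 0.12, and SDHC and SDHD had 0.47 ± 0.25 and -0.35 ± 0.16. Without any 1 of the 4 arrays compared, the count was 0, while the log2 differences of COX5A ranged from 0.52 to 0.66 and those of UQCRC1 from -0.75 to -0.64.

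COX5A and UQCRC1 thus passed at each of the 3 times. COX5A gave 30976 and 27111, 34185 and 28841, and 27423 and 27061 in LM-EV at 0 h, 6 h and 48 h. In BHLHE40-KD it gave 44917 and 42740, 45204 and 45204, and 44797 and 37587. All 6 knockdown arrays were above all 6 LM-EV arrays. UQCRC1 gave 7807 and 7578, 8379 and 8038, and 7508 and 7873 in LM-EV. In BHLHE40-KD it gave 4528 and 5511, 5777 and 5067, and 4556 and 4966. All 6 knockdown arrays were below all 6 LM-EV arrays, the highest at 5777 against a lowest of 7508. The 3 comparisons of a gene use different arrays, but the same 2 lines and slides.

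ATP5F1C was also fully separated, with 17222 to 21781 in LM-EV and 11978 to 16172 in BHLHE40-KD, although at 6 h it did not pass. CYC1 was separated too (15635 to 17801 against 13023 to 13826), with log2 differences of -0.34, -0.39 and -0.28 at 0 h, 6 h and 48 h that missed the threshold. In other settings CYC1 passed at 0 h (floor of 64, limma adjusted p = 0.0285, and no detection filter, 0.0353) and at 6 h (4 settings, 0.018 to 0.048). NDUFAF8 gave 293 to 422 in LM-EV and 143 to 239 in BHLHE40-KD, and NDUFA3 was the other member that was higher, at 9539 to 14076 against 14438 to 17392. In all, 2 members had every knockdown array above every LM-EV array (2.33%, against 7.59% of all genes) and 4 had every one below (4.65% against 8.03%).

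**Figure D3:**
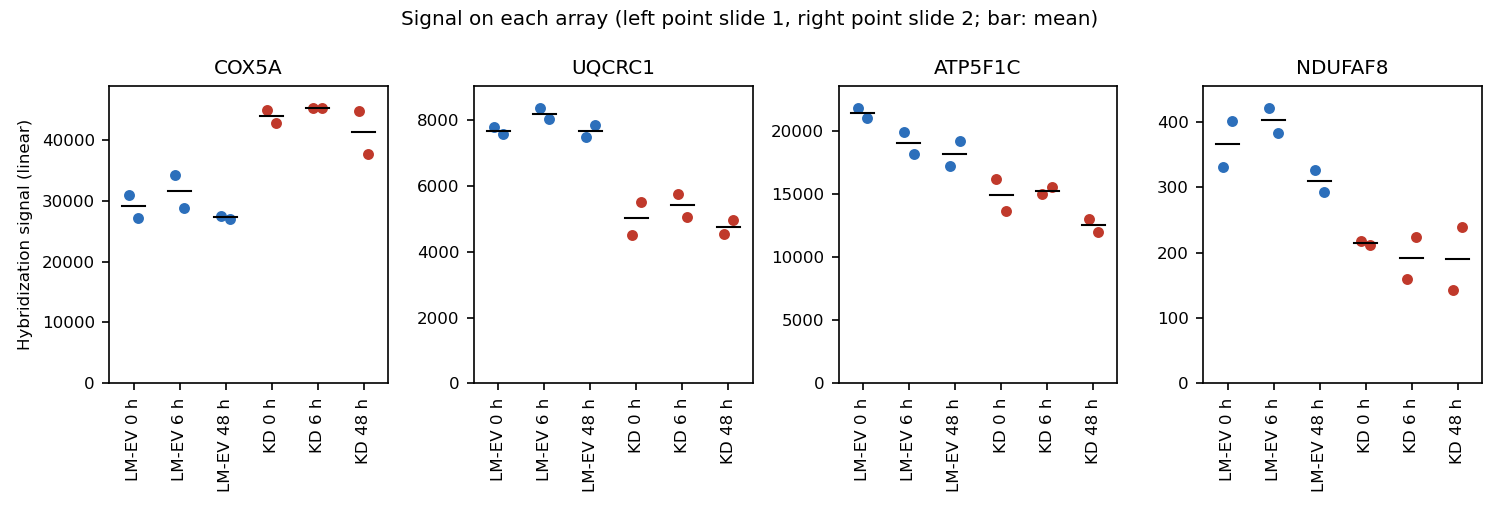
Linear hybridization signal (vertical axes from 0) of 4 members on each array, by line and time, with slide 1 to the left, slide 2 to the right and a bar at the mean of the 2 arrays. LM-EV is blue and BHLHE40-KD (KD) red. COX5A is higher in all 6 knockdown arrays, and UQCRC1, ATP5F1C and NDUFAF8 are lower in all 6.

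COX4I1 had log2 values between -0.13 and 0.09 in all 7 comparisons, and 0 of them passed. COX6A1 had up to 0.31 and COX7A2 up to 0.31, both in untreated BHLHE40-KD against LM-EV, with adjusted p-values of 0.154 and 0.0752. COX7A2 passed there when values under 64 were set to 64 (0.0146) or no detection filter was used (0.00612), and without the filter it also passed at 6 h (0.20, adjusted p = 0.023). ATP5IF1, which stops ATP synthase from running in reverse when the membrane potential collapses, had values from -0.33 to 0.17. Its lowest was that of BHLHE40-KD against LM-EV at 6 h (adjusted p = 0.115), where it gave 4839 and 6191 in LM-EV against 4149 and 4568. The 95% interval of a single member, without adjustment for the number of genes, had a median half-width of 0.33 on the log2 scale, a rise of 25.7%. Smaller changes could not be resolved for a typical member. Passing the adjusted threshold took more: UQCR10 at 0.52 in LM-EV at 6 h did not pass (limma adjusted p = 0.118).

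Compared with other genes of high signal, the members had a narrow spread between the lines. Of the 76 members over a signal of 1000, the middle 80% lay between -0.33 and 0.39 in untreated cells, against -0.51 to 0.52 for all 5518 such genes. The corresponding ranges were -0.32 to 0.28 against -0.49 to 0.49 at 6 h and -0.33 to 0.23 against -0.48 to 0.47 at 48 h. The part of signal level in the spread was not tested.

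**Figure D4:**
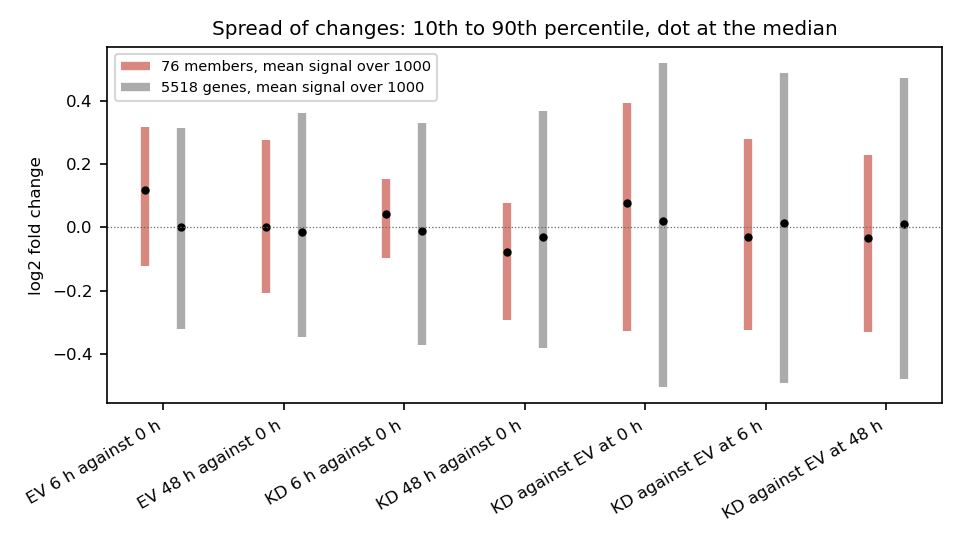
Bars run from the 10th to the 90th percentile of the fitted log2 fold changes (vertical axis) in each of 7 comparisons (horizontal axis), with a dot at the median, for the 76 members (red) and all 5518 genes (grey) with a mean signal over 1000. KD is BHLHE40-KD and EV is LM-EV. The red bars are shorter than the grey ones in all 7 comparisons, and only in LM-EV at 6 h does the red median stand above 0.1.

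Genes that serve the chain without being part of it were given by lists. Of the 34 assembly factors of complexes II to V that were tested, 1 rose and 1 fell in LM-EV at 6 h. Of all genes, 0.292% passed as higher and 0.268% as lower there. At 48 h, 1.1% passed as higher in LM-EV and 2.43% in BHLHE40-KD. SDHAF4, which helps to assemble SDHA, rose at 6 h (1.04 ± 0.12, limma adjusted p = 0.0308) and at 48 h (1.36 ± 0.12, 0.0173), from 323 and 367 to 790 and 991. In BHLHE40-KD it rose at 48 h (1.04 ± 0.12, 0.0129). COA7, a complex IV assembly factor, fell at 6 h in both lines (-0.96 ± 0.14, 0.0435, and -0.85 ± 0.14, 0.0246). In BHLHE40-KD at 6 h TMEM70, which acts on ATP synthase, also fell (-1.33 ± 0.27, 0.0394), as did SCO2, a copper chaperone of complex IV (-0.84 ± 0.18, 0.0429). Of all genes, 3.25% passed as lower in that comparison. Leaving out 1 array in turn, SDHAF4 kept its call at 6 h in 2 of 12 fits and at 48 h in 8 (LM-EV) and 10 (BHLHE40-KD), COA7 in 0 (LM-EV) and 8 (BHLHE40-KD), TMEM70 in 2 and SCO2 in 0. The complex I assembly factors (18, including the 8 members) had 0 calls in the 4 comparisons with untreated cells.

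The list of hypoxia-linked brakes on respiration had 13 tested genes. List genes named here were picked from those past the threshold and do not describe a list as a whole. Of all genes, 0.292% and 1.1% passed as higher in LM-EV at 6 h and 48 h, and 1.9% and 2.43% in BHLHE40-KD. TXNIP, a nutrient-sensitive arrestin, rose in both lines at both times (2.03 and 2.16 in LM-EV, 1.92 and 1.98 in BHLHE40-KD on the log2 scale). PDK4, a kinase that inhibits pyruvate dehydrogenase, rose at 6 h (2.04 ± 0.32, limma adjusted p = 0.0483, and 1.82 ± 0.32, 0.0254). BNIP3, a receptor for mitophagy, rose at 48 h in BHLHE40-KD (0.95 ± 0.16, 0.0255) and had 0.85 ± 0.16 in LM-EV (0.0512), while the interaction called 0 genes of the list. Of 16 genes listed as regulators of respiratory gene transcription, TFB1M rose at 48 h in both lines (0.92 ± 0.13 and 1.09 ± 0.13) and at 6 h in BHLHE40-KD (0.68 ± 0.13, adjusted p = 0.0344). Leaving out 1 array in turn, PDK4 kept its call in 0 (LM-EV) and 8 (BHLHE40-KD) of 12 fits, TXNIP at 6 h in 4 and 10, BNIP3 in 4, and TFB1M in 2 and 9 at 48 h and 0 at 6 h.

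Between the lines, assembly factors differed in both directions. In untreated cells 6 of 34 factors of complexes II to V were higher in BHLHE40-KD (9.5% of all genes), among them UQCC2 (1.04 ± 0.17, limma adjusted p = 0.00708) and COX19 (0.93 ± 0.19, 0.016), and 1 was lower (8.71% of all genes), SDHAF3 (-0.97 ± 0.19, 0.0132). The orphan receptor ESRRA, known to drive respiratory genes, was lower at all 3 times (-0.55, -0.56 and -0.75, adjusted p = 0.0189, 0.0186 and 0.00685), and POLG, the mitochondrial DNA polymerase, was higher (0.76, 0.80 and 0.79). PDSS1, which starts the coenzyme Q side chain, was lower at all 3 times (-1.08, -0.60 and -0.71). The lists of regulators and of electron carriers with coenzyme Q synthesis had 16 tested genes each. Genes named from them were also picked from those past the threshold and do not describe the lists as a whole. Of all genes, 18.2%, 18.4% and 16.5% passed in either direction at 0 h, 6 h and 48 h. Of 16 tricarboxylic acid cycle and pyruvate dehydrogenase genes, 4 were lower and 1 higher in untreated BHLHE40-KD (8.71% and 9.5% of all genes). SUCLA2, a subunit of succinyl-CoA synthetase, gave 2466 and 2545 against 1333 and 1305 untreated and was lower at all 3 times (-0.93, -0.74 and -0.89, limma adjusted p from 0.00221 to 0.00505), and it passed in 12 of 12 fits with 1 array left out at each time. PDHB, of pyruvate dehydrogenase, was also lower at each (-0.46, -0.45 and -0.72). For the genes named here other than SUCLA2, fits with an array left out are not given, so their calls may be less stable.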

How the data were processed

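Total RNA of 12 samples was hybridized to Illumina HT-12 BeadChip arrays. The deposited normalized intensities were made by the authors in GenomeStudio (version not given in the sources used here) by background subtraction and quantile normalization. They are linear. The detection p-values were deposited by the authors with the average bead signal of each probe, also an intensity. Bead signals followed the normalized values on 7 arrays and not on 5 of slide 2 (rank correlation 0.816 to 0.904), 3 of which repeated slide 1 columns, so they were used for this check only. Detection p-values followed on all 12 arrays (0.983 or above).

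Values under 16 (38.7% of the table) were set to 16, log2 was taken, and probes had to reach a detection p below 0.05 in each array of some group. For a gene with several such probes the brightest was used. Symbols came from the platform annotation (30105 probes with 1 symbol, 8 with several, 17189 with none), and current gene tables changed 0 of them. The 12336 genes were fitted with limma 3.58.1 in R 4.3.3 (6 groups, slide as a block, 5 residual degrees of freedom), with Benjamini-Hochberg adjustment within each of 9 contrasts. Scripts were tested on simulated data. Same-slide arrays deviated together in 13 of 15 pairs of groups by a correlation over 0.1 (median 0.163). The number of arrays limits the precision.

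Named members are those past the threshold, or, where fewer than 3 passed, also the 3 highest and 3 lowest values among members detected on all 12 arrays, with the isoform pairs COX4I1 and COX4I2, COX6A1 and COX6A2, COX7A1 and COX7A2, the SDH genes, CYC1 and ATP5IF1. List genes were named from those past the threshold. The members, lists and rules were chosen with earlier results of these data known. The methods' fold rule asks for 1.5-fold the same way on both slides. Promoters are RefSeq's (GRCh38.p14).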

Additional observations from a re-analysis of the deposited data

How the results depend on the processing

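Alternatives were the model without the slide as a block, a floor of 64, an added constant of 64, a stricter or no detection filter, 2 further scalings, each probe tested on its own, the methods' 1.5-fold rule, and leaving out each array in turn. No reported value that had passed changed direction. The same-numbered arrays share a slide, and without the replicate block the count in untreated cells was 5 in place of 8 (NDUFA3, NDUFA7 and SDHA no longer passed), and COX5A at 6 h had an adjusted p of 0.0514. With a floor of 64 the counts were 1 for BHLHE40-KD at 48 h against 0 h, 13 between the lines at 0 h and 6 at 6 h. With a detection p under 0.01 on all 12 arrays, which changes both the limit and the number of arrays, they were also 1, 13 and 6. With the added constant they were 12, 6 and 4 between the lines at 0 h, 6 h and 48 h, and with no detection filter 11, 4 and 3. These counts are given without the share of all genes that passed in the same setting. A change in count from one setting to another is therefore not a result about the members. With each probe on its own, 1 member passed in BHLHE40-KD at 6 h (NDUFAF7, a second probe) and 1 at 48 h (UQCR10, a second probe). By the fold rule the count was 1 in each of the 4 comparisons with untreated cells, 3, 1 and 2 between the lines at 0 h, 6 h and 48 h, and 1 and 2 for the interactions at 6 h and 48 h. In each direction 2.65% to 5.22% of all genes met it against untreated cells, 7.13% to 8.78% between the lines and 2.44% to 3.08% in the interactions.

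Leaving out 1 array gave 0 to 9 members between the lines at 0 h, 0 to 4 at 6 h and 0 to 3 at 48 h. In BHLHE40-KD at 6 h and at 48 h against 0 h it gave 0 to 1, the 1 being NDUFA5 without the untreated array of slide 1. COX5A in untreated cells kept its call in 7 of 7 other settings and in 9 of 12 with an array left out, UQCRC1 likewise, and SDHA in 4 of 7 and 0 of 12. The median over the members in LM-EV at 6 h stayed between 0.10 and 0.16, and that of BHLHE40-KD at 48 h between -0.16 and -0.02. The cause of these differences was not tested. The counts with an array left out are likewise given without the share of all genes. NDUFA5, NDUFB4 and NDUFC2 lie near the detection limit of 42.2 to 51.8.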
